A study of Mus musculus with 24 samples.

Results

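Oesophagi of wild-type mice with duodenal reflux were set against oesophagi of wild-type mice with gastric reflux, to ask which genes tell exposure to bile and pancreatic juice from exposure to stomach acid. All arrays that the titles assign to these groups were taken, 3 per group, which gave 6 of the 24 arrays in the series. Mice of both groups were male C57BL/6J animals aged 12 weeks, with reflux lasting 4 weeks. The series also holds the same reflux types in mice that lack Nrf2 (Nrf2-/-), the transcription factor encoded by Nfe2l2. It further holds mixed reflux and no reflux in both genotypes. Those groups enter the pooled spread, the filter that sets the genes tested, and the scaling of channel levels between arrays. Values of duodenal and gastric reflux in Nrf2-null mice are given side by side, with a few values of the other groups as checks. The sources used here do not give how the reflux was produced. The characteristics name the tissue as whole oesophagus while the source names call it oesophageal epithelium.

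Duodenal contents carry bile acids and pancreatic enzymes, and gastric contents carry acid and pepsin. The oesophagus of the mouse is lined by a stratified, cornifying squamous epithelium whose basal cells divide and whose upper layers die into a barrier. Injury to such an epithelium typically brings stress keratins, ligands of the epidermal growth factor receptor, alarmins and cytokines of the interleukin 1 and interleukin 10 families. The transcription factor NF-kB drives many of those genes, and its inhibitors are themselves among its targets, which closes a feedback loop.

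Each value is a log2 ratio of oesophageal RNA, labelled with Cy5, to a reference RNA pooled from 11 mouse cell lines, labelled with Cy3, so 0 means equal signal and a difference of 1 means a factor of 2. The number of arrays limits the precision. A gene was called when the adjusted p of limma's moderated test lay under 0.05, and ± gives that fit's standard error. The 3 duodenal arrays resembled each other closely: the variance of their pairwise differences was 1.06 to 2.53 times that between repeat spots of an array, with correlations of 0.986 to 0.994. The 3 gastric arrays gave 3.41 to 24.6 times and correlations of 0.895 to 0.986. Because the labels call the duodenal arrays biological replicates, they were kept as 3 samples, and the main results are also given with those arrays counted as 1 sample. The variance of their Cy5 differences was 2.79 to 5.05 times that of their Cy3 differences. For the Nrf2-null mixed arrays, which were averaged to 1 sample, this ratio was 1.76 to 2.06. Pairs of Nrf2-null arrays without reflux gave 0.40 to 6.41, and the wild-type gastric pairs 6.80 to 8.61. Whether the duodenal arrays are separate animals or repeat arrays of 1 sample was not tested.

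Genes of squamous epithelium were high on all 6 arrays, and genes of other tissues were measured beside them. The basal marker Trp63 lay at 7.43 to 7.46 on the duodenal and 6.38 to 7.30 on the gastric arrays, and 16 squamous and stress keratins averaged 4.07 to 4.29 and 3.38 to 3.78. Skeletal muscle genes, 35 in all, averaged 2.37, 2.38 and 2.36 under duodenal reflux, against 0.44, 4.71 and 4.67 under gastric reflux, so gastric replicate 1 stood apart from its group. Liver markers, 21 tested, averaged 2.18 to 2.29 and 1.93 to 3.57, while the 3 wild-type arrays without reflux gave -0.09 to 0.45. Of the liver markers 0 were called in either direction, with 1 higher and 1 lower at an unadjusted p under 0.05 in limma's test. Their albumin gene Alb lay at 4.08 to 4.33 on the duodenal and 3.34 to 3.88 on the gastric arrays.

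The gastric arrays were scanned on one day and the duodenal arrays on another, each group on a slide of its own, so day, slide and reflux type cannot be told apart in these 6 arrays. The reference channel, labelled as the same reference RNA on all arrays, differed between them; a change of lot and carry-over of signal between the channels were not tested. Taken alone, the Cy3 level was called different for 965 genes upward and 713 downward in duodenal arrays, 8.18% of 20514 genes tested. In the same contrast of Nrf2-null mice, whose arrays were all scanned on one day, it was called different for 7 genes. The SD of the Cy3 differences over genes was 0.409 in wild type and 0.178 in Nrf2-null mice, beside 0.704 for the wild-type ratio differences. The main counts therefore have a second reading from the Cy5 level alone, quantile-normalised between arrays. That level was taken after a within-array correction (loess) fitted on both channels, so the reference still enters through the correction. The Cy5 reading, and that with the duodenal arrays as 1 sample, were chosen after seeing the data.

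Between duodenal and gastric reflux, 2843 genes were higher (13.9%) and 1999 lower (9.74%) of the 20514 tested, and 866 of the higher and 1148 of the lower differed at least 2-fold. The groups did not overlap for 6872 genes upward and 3891 downward of all tested, and for 2813 of the higher and 1770 of the lower called genes. The largest differences named below were taken only from genes without overlap, so for them its absence was fixed by the selection. The median difference over all genes was 0.10. Counts of gene lists below are read beside the shares of 13.9% higher and 9.74% lower over all genes. Higher genes made up 58.7% of the calls, but 24.2% after median centring (693 higher, 2171 lower). Without gastric replicate 2 the counts were 1466 higher and 993 lower, without gastric replicate 3 they were 1671 and 1091, without duodenal replicate 2 they were 1718 and 1186, and without duodenal replicate 3 they were 1749 and 1190. On the Cy5 level alone 846 genes were higher and 924 lower. Called in the same direction on both scales were 734 higher genes (3.58%) and 797 lower genes (3.89%). Of the genes called on the ratio, 189 had the opposite sign on the Cy5 level, and for 761 (15.7%) the Cy3 level differed the opposite way by more than 50% of the ratio difference. With the duodenal arrays as 1 sample, 347 genes were higher (1.69%) and 130 lower (0.634%), and 3774 lay at an unadjusted p under 0.05. Of the called genes that the naming rule took, 58 stayed called in that reading and 47 did not. With scan day as a block, a term that only groups scanned on several days can inform, 51 were higher and 34 lower, and with slide as a random block 1884 and 1271.

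**Figure D1:**
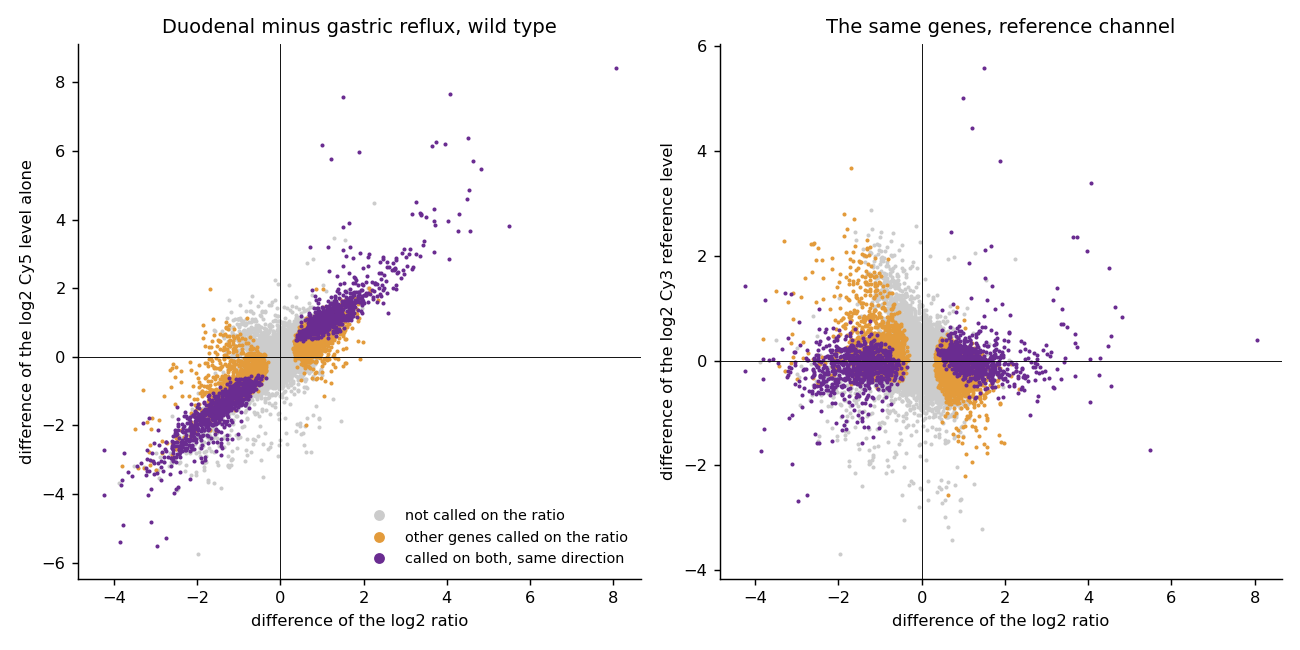
Each dot is 1 of the 20514 genes tested, with the difference duodenal minus gastric of the log2 ratio on the x axis and, on the y axis, the difference of the log2 Cy5 level alone (left) or of the log2 Cy3 reference level (right). Purple dots, called on both scales in the same direction, number 1531, and orange dots are the other genes called on the ratio; the reference channel itself spreads widely around 0.

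Passing under all 4 readings (ratio, Cy5 alone, and each of them with the duodenal arrays as 1 sample) were 42 genes, 30 higher and 12 lower. Edn2 gave the smallest p of the comparison and was singled out after its values were seen. This gene of the vasoactive peptide endothelin 2 lay at 3.05, 3.03 and 3.21 under duodenal reflux, against -0.10, 0.29 and -0.17 under gastric reflux. The groups did not overlap (3.09 ± 0.14, adjusted p = 1.86e-09, and 8.28e-06 with 1 duodenal sample). The flavin monooxygenase Fmo9 lay at 5.13, 4.77 and 4.82 under duodenal reflux, against 0.76, 0.22 and 0.30 under gastric reflux, without overlap and with 1 of 3 gastric arrays well above background (4.48 ± 0.35, adjusted p = 1.64e-06). Cdhr1, a cadherin-related membrane protein, lay at 4.52, 4.64 and 4.52 under duodenal reflux, against 0.94, 0.15 and 0.48 under gastric reflux, so each duodenal array stood more than 3 units above each gastric one (4.04 ± 0.29, adjusted p = 1.21e-06).

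Akr1c18, an aldo-keto reductase that inactivates progesterone, and Plch1, a phospholipase C, were not well above background on any gastric array. Akr1c18 lay at 4.06, 4.26 and 4.30 under duodenal reflux, against -0.10, 0.02 and -0.15 under gastric reflux, and its Cy5 level was at least 18.9-fold higher under duodenal reflux (adjusted p = 2.36e-05). Here and below, such a bound is on channel levels after Aquantile scaling between arrays, another scale than the quantile-normalised Cy5 level. It sets the mean Cy5 level of the brighter group against the lowest level that counted as well above background, or the gene's own level where higher, in the dimmer group, and it is open to dye bias. The adjusted p given beside a bound, here and below, is that of limma's test of the ratio, and the bound itself was not tested. On Cy5 alone the difference of Akr1c18 was 4.17, a smaller fold than the bound. Plch1 was at least 11.3-fold higher (adjusted p = 8.97e-06). The scavenger receptor gene Cd163 and the matrix proteoglycan gene Ogn were among the 12 lower genes and are described with their lists.

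**Figure D2:**
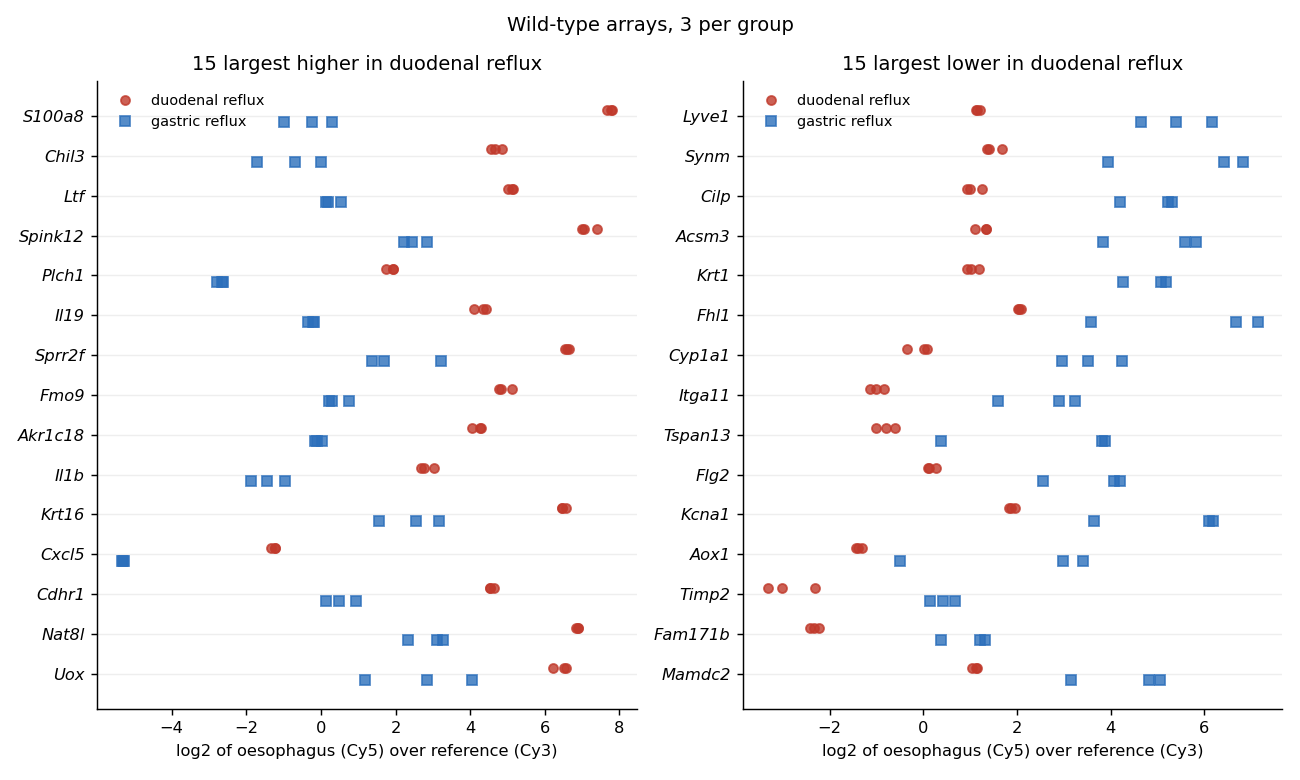
Log2 ratios of oesophagus over reference on each array (red circles, 3 duodenal arrays; blue squares, 3 gastric arrays) for the 15 genes with the largest positive differences (left) and the 15 with the largest negative differences (right) among those the naming rule allows. The rule takes only genes whose groups do not overlap; the duodenal circles lie close together, and gastric replicate 1 accounts for the outlying square in rows such as Tspan13, Fhl1 and Synm.

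Several alarmins and antimicrobial proteins of neutrophils and stressed keratinocytes rose. S100a8, a subunit of calprotectin, lay at 7.80, 7.76 and 7.67 under duodenal reflux, against 0.30, -0.98 and -0.24 under gastric reflux. All duodenal arrays were above 7 and no gastric array reached 1 (8.05 ± 0.79, adjusted p = 1.16e-05, and 8.41 on Cy5 alone). Its partner S100a9 was high in both groups, at 7.63, 7.41 and 7.65 under duodenal reflux, against 6.29, 6.02 and 6.05 under gastric reflux, and rose by less (1.44 ± 0.34, adjusted p = 0.00733). The iron-binding protein Ltf lay at 5.12, 5.02 and 5.15 under duodenal reflux, against 0.12, 0.53 and 0.20 under gastric reflux, again without overlap (4.81 ± 0.73, adjusted p = 0.000309), although only 2 of the 3 gastric arrays showed it well above background. Lcn2, which binds bacterial siderophores, rose by 2.56 ± 0.44 (adjusted p = 0.000779). Chil3, a chitinase-like protein of myeloid cells, lay at 4.85, 4.66 and 4.55 under duodenal reflux, against -0.01, -1.71 and -0.68 under gastric reflux (5.49 ± 1.07, adjusted p = 0.00184). Chil3 (adjusted p = 0.0845), S100a9 (0.154) and Lcn2 (0.0568) did not pass with 1 duodenal sample.

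The neutrophil and alarmin list held 9 higher and 1 lower of 24 tested, with a median difference of 0.78 beside 0.10 over all genes. On both scales 6 were higher, and with 1 duodenal sample 2. Without duodenal replicate 3 there were 5 higher. Its mean ratio was 2.12 to 2.16 on the duodenal and 0.95 to 1.10 on the gastric arrays, and its granulocyte markers Ngp, Elane and Ly6g did not pass the filter on dim probes. In bulk tissue, more cells of a type and more RNA per cell cannot be told apart, and the part of neutrophil numbers in the cytokine and chemokine differences was not tested.

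Cytokine genes of the interleukin 1 and interleukin 10 families rose as well. Il1b lay at 2.68, 3.03 and 2.77 under duodenal reflux, against -0.97, -1.87 and -1.46 under gastric reflux, so every duodenal array was above 2 and every gastric one below 0 (4.26 ± 0.80, adjusted p = 0.00149). Il19 lay at 4.11, 4.42 and 4.34 under duodenal reflux, against -0.20, -0.21 and -0.35 under gastric reflux, and since it was not well above background on any gastric array the difference is a bound of at least 24.4-fold (adjusted p = 0.000621). Il24, of the same family, rose by 1.48 ± 0.18 (adjusted p = 5.67e-05). Il20ra, a subunit of the receptor that binds Il19 and Il24, lay at 2.99, 3.24 and 3.10 under duodenal reflux, against 0.35, -0.29 and -1.09 under gastric reflux, without overlap (3.45 ± 0.34, adjusted p = 1.14e-05, and 0.00606 with 1 duodenal sample). Of 35 genes of interleukin 1 and barrier cytokines 14 were higher and 0 lower, with a median of 0.62. Of these genes 10 were higher on both scales and 4 with 1 duodenal sample. Il1b (adjusted p = 0.0769) and Il19 (0.051) did not pass with 1 duodenal sample.

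Calls among NF-kB targets were all upward. Of 30 tested, 19 were higher and 0 lower (21 and 1 at an unadjusted p under 0.05), and the median difference was 1.21. On both scales 13 were higher, with 1 duodenal sample 6, and with scan day as a block 1. Nfkbiz, an atypical inhibitor protein that steers NF-kB to secondary targets, lay at 1.86, 1.96 and 1.81 under duodenal reflux, against -0.11, -0.87 and -1.08 under gastric reflux, with a wide gap between the groups (2.56 ± 0.29, adjusted p = 3.96e-05, and 0.0124 with 1 duodenal sample). Csf3, the granulocyte growth factor, lay at 3.17, 3.22 and 3.29 under duodenal reflux, against 0.05, -0.07 and 0.35 under gastric reflux, not well above background on any gastric array, and was at least 7.54-fold higher (adjusted p = 8.10e-05). The chemokine Ccl20, which draws dendritic cells and lymphocytes, rose by 1.80 ± 0.22 (adjusted p = 7.39e-05).

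The neutrophil chemokines Cxcl1 and Cxcl5 were below the reference in both groups and higher with duodenal reflux. Cxcl1 lay at -3.17, -3.14 and -3.16 under duodenal reflux, against -5.48, -5.53 and -5.24 under gastric reflux (2.26 ± 0.38, adjusted p = 0.000716), and Cxcl5 at -1.32, -1.24 and -1.23 under duodenal reflux, against -5.31, -5.29 and -5.33 under gastric reflux (4.04 ± 0.87, adjusted p = 0.00365). Neither gene overlapped between the groups. Among the feedback arm, the deubiquitinase Tnfaip3 (A20) lay at -0.88, -0.56 and -0.70 under duodenal reflux, against -2.41, -2.43 and -2.35 under gastric reflux (1.68 ± 0.26, adjusted p = 0.000327), and the atypical inhibitor Bcl3 at 1.27, 1.39 and 1.35 under duodenal reflux, against -0.13, -0.89 and -0.33 under gastric reflux (1.79 ± 0.28, adjusted p = 0.000429). Tnfaip2, which tumour necrosis factor induces, rose by 1.16 ± 0.19 (adjusted p = 0.00062). Tnfaip3, Bcl3 and Tnfaip2 fall outside the naming rule and were taken for their promoters after their values were seen. Cxcl5 (adjusted p = 0.116), Cxcl1 (0.0548) and Tnfaip2 (0.0515) did not pass with 1 duodenal sample. Of 31 CXC and CC chemokines 7 were higher and 2 lower, with a median of 0.16, 5 and 2 on both scales and 2 and 0 with 1 duodenal sample.

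Promoter windows are shown because the called NF-kB targets moved together. Those printed were picked from the windows that hold the NF-kB motif. A window runs from 250 bases before to 50 after the gene's start in RefSeq, build GRCm38.p6, and is written 5′ to 3′ on the gene's strand. Capitals mark a match to the NF-kB motif GGANTTNCC or its reverse complement, where N is any base.
Tnfaip3, chr10:19015361-19015660, minus strand: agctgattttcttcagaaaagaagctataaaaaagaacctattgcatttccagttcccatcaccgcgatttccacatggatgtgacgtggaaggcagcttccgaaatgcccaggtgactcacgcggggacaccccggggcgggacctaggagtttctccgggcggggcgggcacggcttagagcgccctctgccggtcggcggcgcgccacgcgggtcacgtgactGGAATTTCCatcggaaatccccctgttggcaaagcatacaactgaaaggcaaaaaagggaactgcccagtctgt
Bcl3, chr7:19822706-19823005, minus strand: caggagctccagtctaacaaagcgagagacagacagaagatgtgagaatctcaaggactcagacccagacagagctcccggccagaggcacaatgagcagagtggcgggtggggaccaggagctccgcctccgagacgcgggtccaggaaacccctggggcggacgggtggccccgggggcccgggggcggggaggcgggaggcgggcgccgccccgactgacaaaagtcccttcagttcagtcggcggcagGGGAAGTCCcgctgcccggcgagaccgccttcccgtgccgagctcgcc
Tnfaip2, chr12:111442411-111442710, plus strand: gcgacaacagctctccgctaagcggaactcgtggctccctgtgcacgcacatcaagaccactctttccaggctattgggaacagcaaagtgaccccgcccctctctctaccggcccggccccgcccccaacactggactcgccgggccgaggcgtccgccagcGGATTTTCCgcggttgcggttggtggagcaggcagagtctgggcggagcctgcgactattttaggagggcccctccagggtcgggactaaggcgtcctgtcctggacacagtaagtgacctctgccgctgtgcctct
Cxcl1, chr5:90890995-90891294, plus strand: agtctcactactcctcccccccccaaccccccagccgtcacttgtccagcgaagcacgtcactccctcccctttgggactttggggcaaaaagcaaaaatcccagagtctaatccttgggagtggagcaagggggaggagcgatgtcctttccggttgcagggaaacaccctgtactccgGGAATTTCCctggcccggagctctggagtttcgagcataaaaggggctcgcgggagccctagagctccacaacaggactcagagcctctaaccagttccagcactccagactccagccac

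Of the called NF-kB targets 15 had a window, and 7 (46.7%) held the motif: Tnfaip3, Bcl3, Tnfaip2, Cxcl1, Nfkbia, Icam1 and Il6. The list was drawn up from known targets, so this share describes the list. Among all 13185 tested genes with a window 4.74% held the motif, among the 1949 higher genes 6.16%, and among the 1377 lower genes 5.08%. The AP-1 motif TGANTCA stood in 7.42% of all windows, 8.36% of the higher and 7.19% of the lower ones. The antioxidant response element TGACNNNGC, through which Nrf2 acts, stood in 16% of all windows, 15.6% of the higher and 16.7% of the lower ones. All searches covered both strands, and a match is a description of the letters.

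Several growth factors and proteases of wounded epithelium were higher with duodenal reflux. Areg, a ligand of the epidermal growth factor receptor, lay at 2.68, 2.31 and 2.40 under duodenal reflux, against -0.67, -1.20 and -0.86 under gastric reflux. The duodenal arrays all lay above 2 and the gastric arrays all below 0 (3.37 ± 0.38, adjusted p = 3.74e-05, and 0.0124 with 1 duodenal sample). The Cy3 reference level of Areg also differed, by 0.995 (adjusted p = 0.011 in limma's test), beside 4.13 on Cy5 alone. The ligand Epgn lay at 4.60, 4.69 and 4.56 under duodenal reflux, against 1.29, 0.55 and 0.97 under gastric reflux (3.68 ± 0.54, adjusted p = 0.000244), and Hbegf rose by 1.50 ± 0.28 (adjusted p = 0.00157). Plau, the urokinase that activates plasminogen, rose by 2.60 ± 0.32 (adjusted p = 6.13e-05), of which Cy5 alone gave 1.26. The stromelysin Mmp10 rose by 2.83 ± 0.57 (adjusted p = 0.00225). Of 32 wounded epithelium genes 14 were higher and 1 lower, with a median of 0.66, 11 higher on both scales and 6 with 1 duodenal sample. Hbegf (adjusted p = 0.0793) and Mmp10 (0.0919) did not pass with 1 duodenal sample. Of 25 matrix metalloproteinases and inhibitors 6 were higher and 6 lower, with a median of -0.01, 1 and 3 on both scales and 0 and 1 with 1 duodenal sample. Without any one of the 3 duodenal arrays, gastric replicate 2 or gastric replicate 3 the higher count was 3.

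**Figure D3:**
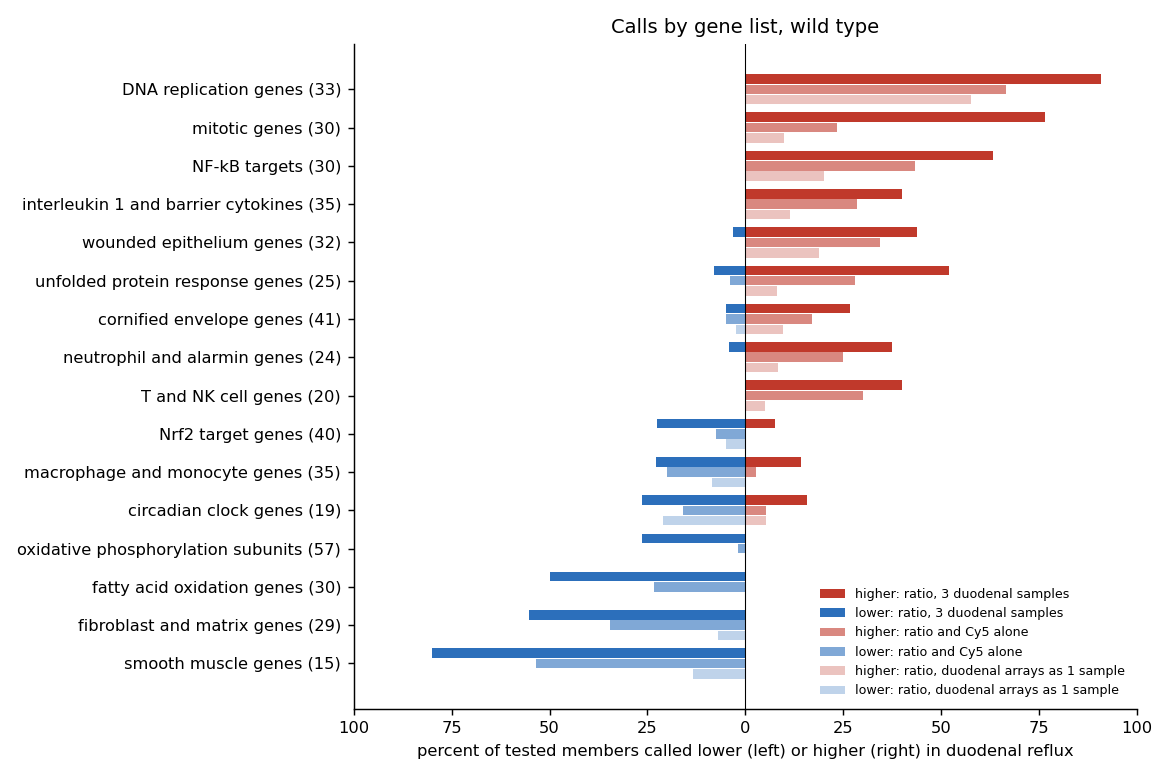
For 16 gene lists, with the number of tested members in brackets, the bars give the percent of members called higher (right, red) or lower (left, blue) in duodenal than in gastric reflux, in wild type. Shades stand for the ratio with 3 duodenal samples, for calls on the ratio and on Cy5 alone, and for the ratio with the duodenal arrays as 1 sample; the DNA replication and NF-kB lists have bars to the right alone and the smooth muscle and fibroblast lists to the left alone.

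Keratinocyte genes were called in both directions. The stress keratin Krt16, which wounded and hyperproliferative epithelium makes, lay at 6.46, 6.46 and 6.58 under duodenal reflux, against 3.17, 1.56 and 2.54 under gastric reflux, without overlap (4.08 ± 0.47, adjusted p = 4.32e-05). On Cy5 alone its difference was 7.66, and the Cy3 level of the same spots differed by 3.38. Its partner Krt6a rose by 0.99 ± 0.24 on the ratio (adjusted p = 0.00799), and by 6.17 on Cy5 alone, with a Cy3 difference of 5.01. In both genes the Cy3 level differed in the same direction as the Cy5 level, and carry-over between the channels was not tested. Krt6a (adjusted p = 0.149) did not pass with 1 duodenal sample.

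Krt1, a keratin of cornifying skin, went the other way, at 1.19, 0.94 and 1.02 under duodenal reflux, against 5.17, 5.06 and 4.25 under gastric reflux (-3.78 ± 0.74, adjusted p = 0.00186), but a second probe of the gene differed by 0.20. Flg2, a filaggrin-family protein of the cornified layer, lay at 0.10, 0.27 and 0.13 under duodenal reflux, against 4.08, 4.20 and 2.56 under gastric reflux. It was not well above background on any duodenal array and was at least 9.88-fold lower there on the scale of the bounds (adjusted p = 0.000431), with a difference of -3.19 on Cy5 alone. Higher were 3 small proline-rich proteins of the cornified envelope: Sprr2f differed by 4.51 ± 0.86, adjusted p = 0.0016, Sprr2h by 3.64 ± 0.50, adjusted p = 0.000138, and Sprr2g by 2.98 ± 0.36, adjusted p = 5.94e-05. Members of this family are near-identical in sequence, so their probes may share signal. The list of cornified envelope genes held 11 higher and 2 lower of 41, and the keratin list 6 and 1 of 16. Krt1 (adjusted p = 0.0847) and Sprr2f (0.0799) did not pass with 1 duodenal sample. Without gastric replicate 2 there were 7 higher cornified envelope genes and 3 higher keratins.

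Of 18 basal keratinocyte genes 5 were higher and 2 lower. Cdh3, the P-cadherin of basal cells, lay at 4.52, 4.12 and 4.24 under duodenal reflux, against 2.95, 2.28 and 2.29 under gastric reflux (1.79 ± 0.26, adjusted p = 0.000246), with duodenal arrays above all gastric ones. Pthlh, the parathyroid hormone-like peptide that keratinocytes secrete, rose by 2.48 ± 0.58 (adjusted p = 0.00632). Cldn7, a tight junction protein, rose by 1.66 ± 0.28 (adjusted p = 0.0007). It was 1 of 4 higher among 20 tight junction genes, beside 13.9% higher over all genes. Pthlh (adjusted p = 0.147) and Cldn7 (0.0527) did not pass with 1 duodenal sample. Leaving out 1 array at a time gave 3 to 6 higher and 0 to 2 lower basal genes, lowest without gastric replicate 2.

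Calls among DNA replication genes were also all upward. Of 33 tested, 30 were higher and 0 lower, and all 33 were higher at an unadjusted p under 0.05, with a median of 1.05. On both scales 22 were higher, with 1 duodenal sample 19, and with scan day as a block 5. Rrm2, the small subunit of ribonucleotide reductase, lay at -0.76, -0.78 and -0.49 under duodenal reflux, against -2.51, -3.12 and -2.98 under gastric reflux, without overlap (2.20 ± 0.26, adjusted p = 4.32e-05, and 0.0124 with 1 duodenal sample). Uhrf1, which keeps DNA methylated through replication, lay at -1.07, -1.16 and -1.13 under duodenal reflux, against -2.73, -3.16 and -3.07 under gastric reflux (1.87 ± 0.19, adjusted p = 1.21e-05). The helicase subunit Mcm6 rose by 1.38 ± 0.15 (adjusted p = 3.31e-05) and cyclin E1, Ccne1, by 1.70 ± 0.17 (adjusted p = 1.30e-05).

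Mitotic genes had fewer calls beyond the ratio. Of 30, 23 were higher and 0 lower on the ratio, with a median of 0.79, but 7 on both scales and 3 with 1 duodenal sample. Without gastric replicate 3 there were 13 and without gastric replicate 2 there were 15. The checkpoint kinase Bub1 lay at -2.97, -3.03 and -2.98 under duodenal reflux, against -4.00, -4.65 and -4.83 under gastric reflux (1.50 ± 0.20, adjusted p = 0.000128). The spindle factor Tpx2 rose by 1.04 ± 0.17 (adjusted p = 0.000476). The centromere histone Cenpa rose by 1.32 ± 0.20 (adjusted p = 0.000441), while on Cy5 alone its difference of 0.81 did not pass (adjusted p = 0.212).

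**Figure D4:**
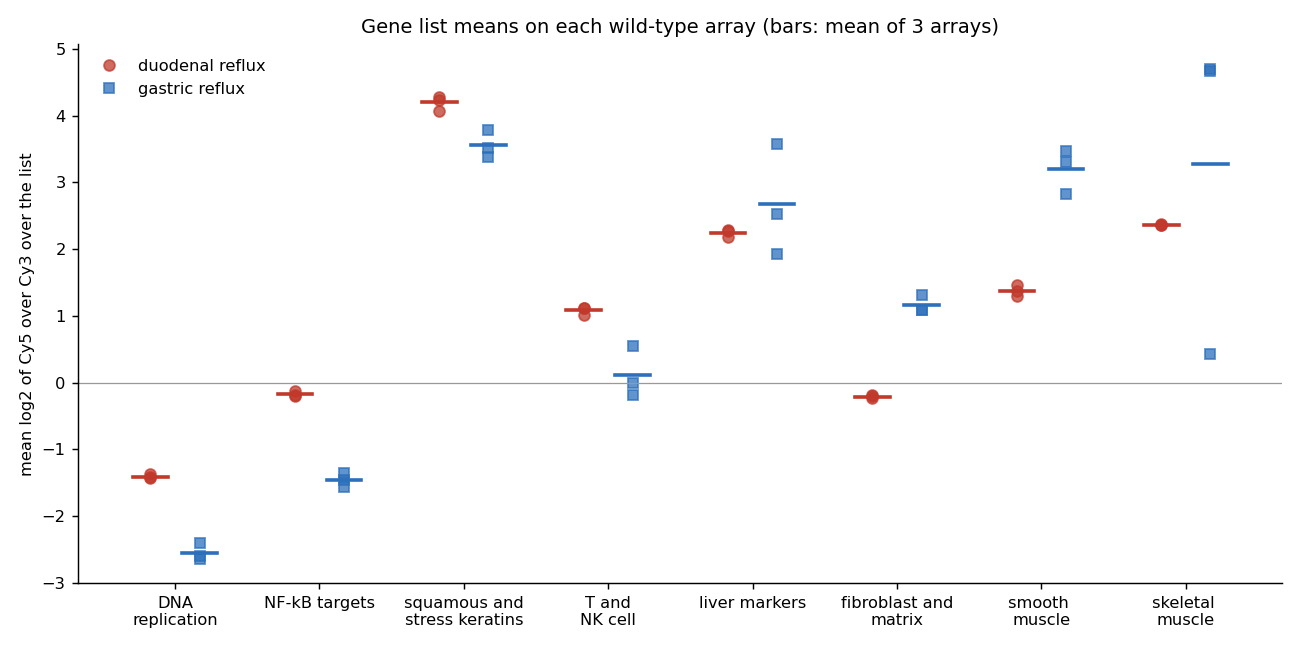
Mean log2 ratio over the tested members of 8 gene lists on each wild-type array, with duodenal arrays (red circles) left of gastric arrays (blue squares) and a line at the mean of 3 arrays. DNA replication and NF-kB means are higher on every duodenal array, fibroblast and smooth muscle means are lower, and the skeletal muscle mean of gastric replicate 1 lies at 0.44, far below 4.71 and 4.67.

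Genes of protein folding in the endoplasmic reticulum were higher in part. The disulphide isomerase Pdia4 lay at 1.27, 1.18 and 1.56 under duodenal reflux, against -0.34, -0.82 and -0.36 under gastric reflux (1.85 ± 0.21, adjusted p = 4.20e-05), without overlap. Sdf2l1, a chaperone partner, rose by 1.44 ± 0.21 (adjusted p = 0.000246), and the stress-induced secreted protein Manf by 1.27 ± 0.21 (adjusted p = 0.000803), although Cy5 alone gave 0.58 for Manf (adjusted p = 0.388). Of 25 unfolded protein response genes 13 were higher and 2 lower, 7 and 1 on both scales. Pmaip1 (Noxa), a promoter of apoptosis, rose by 2.54 ± 0.30 (adjusted p = 4.37e-05). Its list of 27 p53 target and apoptosis genes had 4 higher and 1 lower, beside 13.9% and 9.74% over all genes. Manf (adjusted p = 0.057) did not pass with 1 duodenal sample.

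Lymphocyte and antigen presentation genes were higher in part. Cd3d, a chain of the T cell receptor complex, lay at 2.91, 3.13 and 2.99 under duodenal reflux, against 1.09, -0.01 and -0.47 under gastric reflux, without overlap (2.81 ± 0.58, adjusted p = 0.00286). The kinase Zap70, which relays that receptor's signal, rose by 1.20 ± 0.20 (adjusted p = 0.00061). Of 20 T and NK cell genes 8 were higher and 0 lower, with a median of 0.84, 6 on both scales and 1 with 1 duodenal sample. The mean of the list was 1.01 to 1.12 on the duodenal and -0.19 to 0.55 on the gastric arrays. Of 17 MHC class II genes 5 were higher and 0 lower, among them H2-Oa (1.48 ± 0.20, adjusted p = 0.000136). Interferon-stimulated genes did not follow, with 1 of 37 higher, 0 lower and a median of 0.03. Cd3d (adjusted p = 0.103) did not pass with 1 duodenal sample. Leaving out 1 array at a time gave 4 to 9 higher T and NK cell genes, with 4 or 5 without duodenal replicate 1 or 2 or gastric replicate 2 or 3. For MHC class II it gave 3 to 5, with 3 without duodenal replicate 3 or gastric replicate 2 or 3.

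Several of the largest rises belong to none of these lists. Spink12, a protease inhibitor, lay at 7.39, 6.99 and 7.04 under duodenal reflux, against 2.84, 2.44 and 2.23 under gastric reflux (4.64 ± 0.91, adjusted p = 0.00188). Nat8l, which makes N-acetylaspartate, lay at 6.90, 6.83 and 6.89 under duodenal reflux, against 3.26, 2.35 and 3.12 under gastric reflux (3.96 ± 0.70, adjusted p = 0.000913), and Uox, the urate oxidase, at 6.58, 6.21 and 6.51 under duodenal reflux, against 4.05, 2.84 and 1.18 under gastric reflux (3.74 ± 0.85, adjusted p = 0.00496). All 3 genes were taken by a rule that allows no overlap. Slc26a4 (pendrin), an exchanger of chloride and bicarbonate, lay at 1.97, 2.29 and 2.14 under duodenal reflux, against -1.55, -1.57 and -1.54 under gastric reflux. It was not well above background on any gastric array and was at least 9.09-fold higher on the scale of the bounds (adjusted p = 0.00186), with a difference of 3.06 on Cy5 alone. The carbonic anhydrase Car12 rose by 1.18 ± 0.16 (adjusted p = 0.000255). Of 43 acid-base and ion transport genes 6 were higher and 4 lower, near the shares of 13.9% and 9.74% over all genes. Spink12 (adjusted p = 0.0851), Nat8l (0.0624), Uox (0.133) and Slc26a4 (0.0847) did not pass with 1 duodenal sample.

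Calls among contractile genes of smooth muscle were all downward. Of 15 tested, 0 were higher and 12 lower, with a median of -1.75, 8 lower on both scales and 2 with 1 duodenal sample. Their mean was 1.46, 1.30 and 1.37 under duodenal reflux, against 2.83, 3.46 and 3.31 under gastric reflux. Tagln, an actin-binding protein of smooth muscle, lay at 0.17, 0.19 and 0.10 under duodenal reflux, against 2.10, 2.28 and 2.16 under gastric reflux, without overlap (-2.03 ± 0.30, adjusted p = 0.000408). The calponin Cnn1 lay at 3.80, 3.68 and 3.64 under duodenal reflux, against 5.40, 5.59 and 5.36 under gastric reflux (-1.75 ± 0.28, adjusted p = 0.000679). Synm, an intermediate filament protein of muscle, lay at 1.68, 1.36 and 1.41 under duodenal reflux, against 3.94, 6.82 and 6.41 under gastric reflux (-4.24 ± 0.68, adjusted p = 0.000482), and Fhl1, a muscle LIM protein, at 2.01, 2.03 and 2.09 under duodenal reflux, against 3.59, 7.14 and 6.68 under gastric reflux (-3.76 ± 0.71, adjusted p = 0.002). In both Synm and Fhl1 gastric replicate 1 lay well below the other gastric arrays. For Cald1, which binds actin and myosin, the ratio differed by -2.60 ± 0.48, adjusted p = 0.00132, while Cy5 alone gave -0.33 (adjusted p = 0.713) and Cy3 2.23. Fhl1 (adjusted p = 0.0876), Cnn1 (0.0527) and Cald1 (0.0687) did not pass with 1 duodenal sample.

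Calls among fibroblast and matrix genes were all downward. Of 29 tested, 0 were higher and 16 lower, with a median of -1.40, 10 lower on both scales and 2 with 1 duodenal sample. Ogn (osteoglycin) lay at -3.71, -4.08 and -4.09 under duodenal reflux, against -1.97, -0.85 and -1.73 under gastric reflux, without overlap (-2.45 ± 0.29, adjusted p = 5.66e-05, and 0.0133 with 1 duodenal sample). Cilp, a matrix protein first described in cartilage, lay at 0.92, 1.26 and 1.00 under duodenal reflux, against 4.20, 5.30 and 5.23 under gastric reflux (-3.85 ± 0.80, adjusted p = 0.00276). Fbln2, which links elastic fibres to basement membranes, fell by 1.93 ± 0.25 on the ratio (adjusted p = 8.47e-05), and its Cy5 difference of -1.07 did not pass (adjusted p = 0.105). Cilp (adjusted p = 0.101) did not pass with 1 duodenal sample.

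Of 18 collagen genes 0 were higher and 6 lower, among them Col8a1 (-2.30 ± 0.45, adjusted p = 0.00253). The collagen receptor Itga11 differed by -3.56 ± 0.46, adjusted p = 9.97e-05, and Mamdc2, a secreted protein of the matrix, lay at 1.03, 1.13 and 1.15 under duodenal reflux, against 3.16, 5.05 and 4.81 under gastric reflux (-3.24 ± 0.58, adjusted p = 0.001). The metalloproteinase inhibitors Timp2 and Timp3 fell by 3.30 ± 0.58 (adjusted p = 0.00126) and 3.15 ± 0.44 (adjusted p = 0.000332) on the ratio. On Cy5 alone Timp3 differed by -1.79 (adjusted p = 0.0161) and Timp2 by -0.97 (adjusted p = 0.258), so Timp2 did not pass there. Ptgis, the prostacyclin synthase of vessel walls, fell by 2.53 ± 0.34 (adjusted p = 0.000113). Of 22 endothelial genes 0 were higher and 3 lower, with a median of -0.15. Col8a1 (adjusted p = 0.0966), Mamdc2 (0.0648) and Timp2 (0.0644) did not pass with 1 duodenal sample. Without gastric replicate 3 there were 3 lower collagen genes.

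Some genes of macrophages were lower, while the count of higher ones was near the share over all genes. Cd163, the receptor that clears haemoglobin, lay at 1.44, 1.48 and 1.27 under duodenal reflux, against 4.54, 4.42 and 4.56 under gastric reflux. Its arrays agreed within each group and did not overlap between them (-3.11 ± 0.31, adjusted p = 1.22e-05, and 0.00624 with 1 duodenal sample). The Cy3 reference level of Cd163 also differed, by -1.04 (adjusted p = 0.012 in limma's test), beside -3.86 on Cy5 alone. Lyve1, a hyaluronan receptor of lymphatic endothelium and of some macrophages, lay at 1.12, 1.22 and 1.14 under duodenal reflux, against 4.64, 5.39 and 6.16 under gastric reflux (-4.24 ± 0.80, adjusted p = 0.00156). F13a1, the catalytic subunit of coagulation factor XIII, lay at -0.38, 0.01 and -0.20 under duodenal reflux, against 3.05, 2.80 and 3.22 under gastric reflux (-3.22 ± 0.48, adjusted p = 0.000338), and Retnla, a product of alternatively activated macrophages, at 1.68, 2.02 and 1.90 under duodenal reflux, against 4.81, 4.83 and 4.88 under gastric reflux (-2.97 ± 0.45, adjusted p = 0.000398). Neither overlapped between the groups. Of 35 macrophage and monocyte genes 5 were higher and 8 lower, beside 13.9% and 9.74% over all genes, with a median of -0.01. On both scales 1 was higher and 7 lower, beside 3.58% and 3.89% over all genes. Chil3, described with the alarmins above, is on this list and was among the higher genes. Lyve1 (adjusted p = 0.0791) did not pass with 1 duodenal sample.

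Calls in 3 lists of mitochondrial energy metabolism were all downward. Of 30 fatty acid oxidation genes 15 were lower and 0 higher, of 57 oxidative phosphorylation subunits 15 and 0, and of 20 TCA cycle enzymes 7 and 0. On both scales 7, 1 and 0 of these were lower, and with 1 duodenal sample 0 in each list. Of 34 hypoxia and glycolysis genes 5 were higher and 6 lower, with a median of -0.15, 2 and 0 on both scales and 0 and 0 with 1 duodenal sample. Cd36, a fatty acid transporter, lay at -1.78, -1.69 and -1.91 under duodenal reflux, against 0.24, 1.14 and 0.37 under gastric reflux (-2.38 ± 0.44, adjusted p = 0.00122). Decr1, Acadvl, Uqcrfs1 and Mdh2, enzymes of fatty acid oxidation, the respiratory chain and the TCA cycle, fell by 0.99 to 1.56. Without gastric replicate 1, the array low in skeletal muscle genes, 16 in place of 3 skeletal muscle genes, 32 in place of 15 oxidative phosphorylation subunits and 12 in place of 6 hypoxia and glycolysis genes were lower, and 1 fatty acid oxidation gene was higher. Leaving out any one of the other 5 arrays gave 3 to 9 lower subunits and 2 or 3 lower TCA cycle enzymes, and 9 oxidation genes without gastric replicate 2 or 3. The part of muscle in these differences was not tested. With the muscle mean as a covariate 14 of the 57 subunits and 14 of the 30 oxidation genes were lower. Under that covariate the skeletal muscle list itself had 12 higher and 9 lower genes, so the fit does not take muscle out of the comparison. Cd36 (adjusted p = 0.0698) did not pass with 1 duodenal sample.

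Of 27 xenobiotic P450 and conjugation enzymes 1 was higher and 4 lower, with a median of -0.01, 0 and 3 on both scales and 0 and 1 with 1 duodenal sample. Cyp1a1, the cytochrome P450 that the aryl hydrocarbon receptor induces, lay at -0.35, 0.01 and 0.07 under duodenal reflux, against 4.25, 3.51 and 2.95 under gastric reflux, without overlap and with 2 of 3 duodenal arrays well above background (-3.66 ± 0.51, adjusted p = 0.000164). Cyp1b1 of the same pathway fell by 1.89 ± 0.31 (adjusted p = 0.00062). Aldh1a1, which makes retinoic acid, lay at 0.39, 0.50 and 0.41 under duodenal reflux, against 2.00, 2.84 and 2.76 under gastric reflux, without overlap (-2.10 ± 0.19, adjusted p = 8.97e-06, and 0.00506 with 1 duodenal sample). Acsm3, an acyl-CoA synthetase, differed by -3.82 ± 0.61, adjusted p = 0.000474, and the aldehyde oxidase Aox1 by -3.35 ± 0.78, adjusted p = 0.00606, with gastric replicate 1 again far below the other gastric arrays for Aox1. Aox1 (adjusted p = 0.144) and Cyp1b1 (0.051) did not pass with 1 duodenal sample.

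Nrf2 target genes did not move in one direction: of 40, 3 were higher and 9 lower, with a median of -0.11, and 0 and 3 on both scales. Without gastric replicate 1 the counts were 7 higher and 8 lower, and leaving out any other array gave 1 or 2 higher. The glutathione transferase Gstm1 lay at 2.08, 2.15 and 2.13 under duodenal reflux, against 3.72, 3.22 and 3.15 under gastric reflux (-1.24 ± 0.16, adjusted p = 0.000122, and 0.0225 with 1 duodenal sample), and Gstm3 fell by 0.87 ± 0.19 (adjusted p = 0.00474). Ptgr1, a prostaglandin reductase, rose by 0.87 ± 0.19 on the ratio (adjusted p = 0.00392) but not on Cy5 alone (0.19, adjusted p = 0.616). Nfe2l2 itself did not pass (0.43 ± 0.24, adjusted p = 0.211). Its inhibitor Keap1 was lower on the ratio (-1.24 ± 0.40, adjusted p = 0.034) but differed by 0.40 on Cy5 alone, the opposite sign, and by 1.61 in the reference. Gstm3 (adjusted p = 0.13), Ptgr1 (0.12) and Keap1 (0.279) did not pass with 1 duodenal sample.

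Some clock genes differed between the groups, and the sources used here do not give the time of day of dissection. The output factors Dbp and Tef and the repressor Nr1d1 were lower with duodenal reflux. Dbp lay at -1.24, -1.28 and -1.28 under duodenal reflux, against -0.02, 0.51 and 0.80 under gastric reflux, without overlap (-1.70 ± 0.20, adjusted p = 7.90e-05), and Nr1d1 at 0.89, 0.78 and 0.90 under duodenal reflux, against 2.62, 2.62 and 2.91 under gastric reflux (-1.86 ± 0.24, adjusted p = 0.0001), whose other 2 probes differed by -0.31 and 0.94. The repressor Bhlhe40 was higher (1.29 ± 0.16, adjusted p = 8.39e-05), but not on Cy5 alone (adjusted p = 0.107). Of 19 clock genes 3 were higher and 5 lower, and 1 and 4 with 1 duodenal sample. Fkbp5, a co-chaperone that glucocorticoids induce, lay at -1.70, -1.68 and -1.62 under duodenal reflux, against -0.41, -0.20 and -0.16 under gastric reflux, clearly apart (-1.41 ± 0.13, adjusted p = 8.97e-06). The other 2 probes of Fkbp5 differed by -0.49 and -0.24.

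Lists of pancreas, stomach and bile acid genes are read beside the shares over all genes, 13.9% higher and 9.74% lower. Of 18 exocrine pancreas markers 3 were higher and 0 lower, with a median of 0.37. Among the 3 was Zg16, which is also on the columnar and intestinal list and is described there. The trypsinogen Prss2 lay at 0.46, 0.37 and 0.31 under duodenal reflux, against 0.06, 0.03 and 0.01 under gastric reflux (0.35 ± 0.11, adjusted p = 0.0302), just above the reference in both groups, with 1 of 3 gastric arrays well above background, and did not pass on Cy5 alone (adjusted p = 0.373). Of 14 gastric epithelium markers 0 were higher and 0 lower in limma's test, with 1 higher and 0 lower at an unadjusted p under 0.05. Of 26 genes of bile acid receptors, transporters and enzymes 4 were higher and 2 lower. They included Cyp7b1, an oxysterol hydroxylase of the alternative bile acid pathway (1.51 ± 0.39, adjusted p = 0.0104), and the organic anion transporter Slco2a1 (1.10 ± 0.23, adjusted p = 0.00329), where Slco2a1 did not pass on Cy5 alone (adjusted p = 0.223). Prss2 (adjusted p = 0.283), Cyp7b1 (0.182) and Slco2a1 (0.109) did not pass with 1 duodenal sample. Without gastric replicate 2 there were 1 higher pancreas marker and 2 higher bile acid genes.

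Columnar and intestinal markers gave 6 higher and 3 lower of 30 tested, with a median of 0.08. The intestinal regulators Cdx1 and Cdx2 and the goblet cell mucin Muc2 did not pass the filter on dim probes. The lectin Zg16, listed both as a goblet cell and as an exocrine pancreas marker, lay at 1.34, 1.81 and 1.54 under duodenal reflux, against -0.23, 0.01 and 0.18 under gastric reflux (1.57 ± 0.24, adjusted p = 0.000324). Gata6, a regulator of gut endoderm and mesenchyme, fell by 1.49 ± 0.26 (adjusted p = 0.000776). Gata6 (adjusted p = 0.0548) did not pass with 1 duodenal sample. Without gastric replicate 2 or 3 there were 3 higher markers.

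Nrf2-null mice gave the same contrast on arrays that share none with the wild type. Null duodenal arrays 1 and 3 were closely alike: the variance of their difference was 1.61 times that between repeat spots, with a correlation of 0.992. The pairs with null duodenal array 2 gave 15.9 and 17.7 times. With arrays 1 and 3, and the wild-type duodenal arrays, counted as 1 sample each, fewer null genes were called, as given with the processing alternatives. Nfe2l2 lay at 1.45 to 2.18 on the 6 wild-type and at -3.81 to -2.83 on the 6 null arrays of duodenal and gastric reflux. Null gastric replicate 2 is labelled male, but its Xist of -1.78 and Ddx3y of -4.20 go against that label. In Nrf2-null mice 863 genes were higher (4.21%) and 345 lower (1.68%) in duodenal than in gastric reflux, and without that array 638 and 267. Without null gastric replicate 1 they were 2249 and 1720, and without null duodenal replicate 3 they were 554 and 185. Called in the same direction in both genotypes were 709 genes, 14.6% of the wild-type and 58.7% of the null calls, 566 of them higher and 143 lower, while 11 were called in opposite directions.

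**Figure D5:**
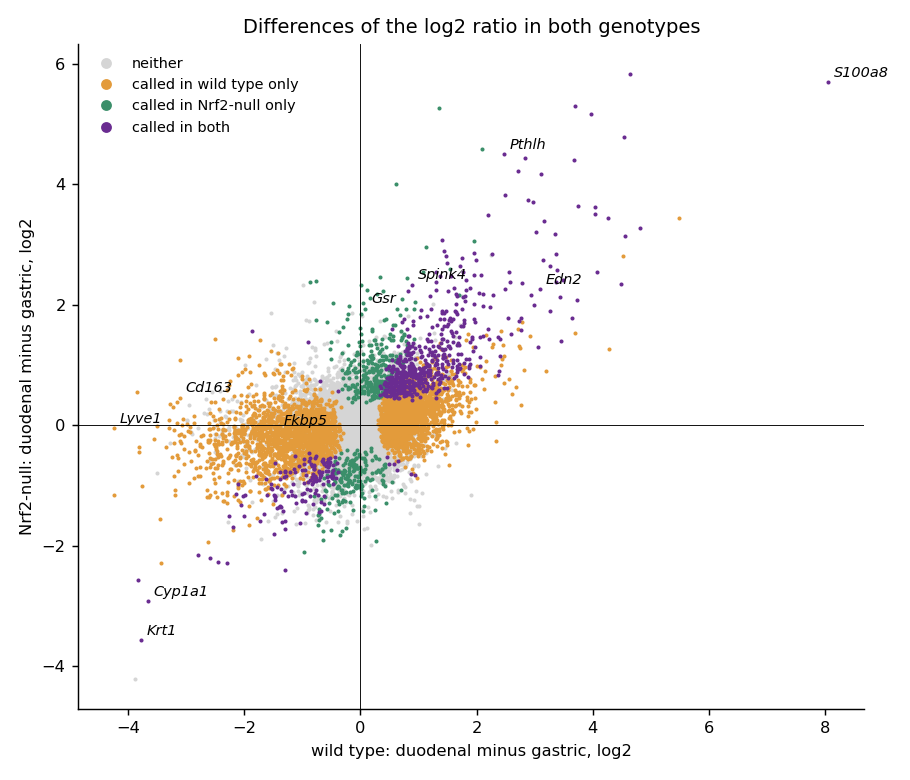
Each dot is 1 of the 20514 genes tested, with the difference duodenal minus gastric of the log2 ratio in wild type on the x axis and in Nrf2-null mice on the y axis. Purple dots are the genes called in both genotypes, orange and green those called in one; S100a8 and Krt1 lie far out in the same direction in both, while Lyve1 and Cd163 lie low in wild type and near 0 in the null.

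Most genes called in wild type had a null difference of the same sign, 2265 of the 2843 higher and 1455 of the 1999 lower ones. S100a8, Cxcl1, Areg, Mmp10, Cdhr1 and Cyp1a1 are given as examples. The differences in wild type and in Nrf2-null mice were 8.05 and 5.70 for S100a8 (null adjusted p = 0.000396), 2.26 and 2.84 for Cxcl1 (0.000316), and 3.37 and 2.84 for Areg (0.000316). For Mmp10 they were 2.83 and 4.44 (0.000226), for Cdhr1 4.04 and 3.52 (3.91e-06), and for Cyp1a1 -3.66 and -2.92 (0.00225). Of the NF-kB list 16 were higher and 0 lower in the null, of the wounded epithelium list 17 and 0, and of the neutrophil list 13 and 0.

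Calls of other lists in the null are read beside 4.21% higher and 1.68% lower over all genes there. The null medians were -0.79 for smooth muscle, 0.13 for fibroblast, 0.38 for DNA replication and -0.08 for mitotic genes, beside 0.03 over all genes. DNA replication genes had 11 higher and 0 lower of 33 there, mitotic genes 0 higher and 1 lower of 30, and fibroblast genes 2 higher and 0 lower of 29. Lyve1 differed by -0.04 (adjusted p = 0.987) and Cd163 by 0.46 (0.484) in the null.

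The difference between the genotypes' contrasts passed for 312 genes (1.52%), 163 more positive in wild type and 149 more negative, with 3933 at an unadjusted p under 0.05. With the wild-type duodenal arrays as 1 sample 0 passed in limma's test, with 1837 at an unadjusted p under 0.05, and on Cy5 alone 8 passed. Cd163 differed by -3.57 ± 0.44 (adjusted p = 0.00257), wild type minus null. Gsr, the glutathione reductase, differed by -1.85 ± 0.22 (adjusted p = 0.00257): it lay at -0.71, -0.77 and -0.47 under duodenal reflux, against -0.90, -0.53 and -0.78 under gastric reflux in wild type, overlapping, while its null difference was 1.93 (3.91e-06). The aldo-keto reductase Akr1b8 differed by -2.28 ± 0.31 (adjusted p = 0.00948), with -0.89 in wild type and 1.39 in the null. Akr1c18 differed by 3.01 ± 0.65 (adjusted p = 0.0339). Without wild-type gastric replicate 1 the genotype difference passed for 890 and 1330 genes, and without duodenal replicate 2 for 2 and 9.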

How the data were processed

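The authors deposited Agilent scanner files, which hold Cy5 and Cy3 mean and background intensity per spot on a linear scale and a log10 ratio, per the file headers (software 10.5.1.1 and 10.7.3.1). Agilent Feature Extraction 9.1 is the tool in the submitters' processing notes. A deposited value table with log2 ratios, whose normalisation the sources used here do not state, served as an alternative.

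Ratios were recomputed with limma 3.58.1 in R 4.3.3: normexp background correction with an offset of 50, loess within arrays with the 1639 control spots at weight 0, outlier spots left out, outlier local backgrounds set to the array's median, and repeat spots averaged. This kept 43379 spots of 41174 probes. No dyes were swapped. Probes were named through RefSeq by accession (27029), symbol (5010) or synonym (795), and 8340 kept another name. The brightest probe stood for a gene; of 1855 called genes with another probe 442 (23.8%) had one of opposite sign. Another probe gave a smaller difference of the same sign for Synm (-1.81), Lyve1 (-2.21), Bub1 (0.62), Cyp1b1 (-0.79), Il24 (0.82), Car12 (0.52), Gata6 (-0.87) and Slco2a1 (0.69). A gene was tested if some group had it well above background in Cy5 on each of its arrays.

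One fit with a mean per group covered 22 samples, with Nrf2-null mixed reflux averaged to 1 sample because its arrays differed less than repeat spots. The fit had 14 residual degrees of freedom and a prior of 2.91, with the Benjamini-Hochberg adjustment. Nothing says that the arrays of a group came from separate extracts beyond the label biological replicate, so p-values measure the spread between these arrays. The 54 gene lists and their members were chosen with earlier results of these data known. Named are the 15 largest called differences in each direction without overlap, up to 4 called members per list by p, and 8 genes of the genotype test. Alternatives covered background, normalisation, filter, blocks, probes, samples and the channel.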

Additional observations from a re-analysis of the deposited data

Results flagged for a closer look

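Named genes whose duodenal minus gastric difference itself differed between wild type and Nrf2-null mice are given here, as wild type minus null on the log2 scale. Of these 29 genes, 0 passed with the wild-type duodenal arrays as 1 sample and 3 passed on the Cy5 level alone.

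Macrophage and matrix genes were more negative in wild type: Cd163 by -3.57, F13a1 by -3.52, Retnla by -2.87, Lrrn4cl by -3.92, Itga11 by -3.33, Col8a1 by -2.89, Timp3 by -2.66, Ogn by -2.13 and Fbln2 by -2.02. Fam171b (-3.26), Ptgis (-2.49) and Gata6 (-1.70) followed. All these had null differences between -0.48 (Timp3) and 1.43 (Lrrn4cl).

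Gsr (-1.85), Rps7-ps2 (-1.92), Akr1b8 (-2.28), Spink4 (-1.44) and Il24 (-1.34) rose in the null contrast, by 1.39 for Akr1b8 up to 2.82 for Il24. Fkbp5 (-1.33), Dbp (-1.21) and Aldh1a1 (-1.13) were lower in wild type and also more negative there than in the null.

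More positive in wild type were Akr1c18 (3.01), Fmo9 (2.14), Il20ra (2.05), Nfkbiz (1.78), Rad51ap1 (1.34), Bub1 (1.27), Tpx2 (1.02), Mcm6 (0.96) and Edn2 (0.83).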

How the results depend on the processing

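Counts are given as higher and lower for the wild-type contrast, for the null contrast, and for the genotype difference. The cause of each shift was not tested. Median centring gave 693 and 2171, 193 and 100, and 1 and 3. It put 24.2% of the wild-type calls on the higher side (58.7% as reported), with the median of all genes at -0.09 in place of 0.10. Cy5 alone gave 846 and 924 (47.8% higher), 299 and 137, and 2 and 6. Scan day as a block gave 51 and 34, 1841 and 1142, and 0 and 5. Slide as a random block gave 1884 and 1271, 924 and 377, and 23 and 29. A fit of only the arrays compared gave 4781 and 2781, 56 and 2, and 1 and 8. With Nrf2-null mixed reflux as 3 samples the null contrast gave 1169 and 553 and the genotype difference 504 and 448, and with a skeletal muscle covariate 1041 and 539, and 210 and 356. With the wild-type duodenal arrays as 1 sample the counts were 347 and 130 (72.7% higher), with 0 and 0 for the genotype difference. With null duodenal arrays 1 and 3 also as 1 sample they were 235 and 82 (74.1% higher), 316 and 86, and 0 and 0. Cy5 alone with 1 duodenal sample gave 32 and 12, and 0 and 0. The genotype difference alone moved to 51 and 67 with local backgrounds as read, 88 and 92 with an offset of 16, 69 and 66 with the scanner software's ratio, 74 and 77 with the deposited table and 55 and 60 without the arrays of slide 1.

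Leaving out 1 replicate at a time gave 1466 to 3070 higher and 993 to 2461 lower genes in wild type, lowest without gastric replicate 2 and highest without gastric replicate 1. Null counts ran from 554 to 2249 and 185 to 1720, highest without null gastric replicate 1. The genotype difference ran from 2 to 1589 and 9 to 1330. It had 890 and 1330 without gastric replicate 1, 1589 and 1189 without null gastric replicate 1, and 2 and 9 without duodenal replicate 2.

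A replicate block gave 2461 and 1775, 703 and 270, and 46 and 56. Same-numbered arrays deviated together with correlations of 0.04, 0.13 and 0.01 in wild type and -0.63, -0.41 and 0.54 in the null, so the numbers were not read as a pairing. Among named genes called in wild type, 104 stayed called with the replicate block, 102 with the slide block, 90 on Cy5 alone, 58 with 1 duodenal sample and 16 with the scan day block. Keap1 reversed to 0.11 with scan day as a block and to 0.40 on Cy5 alone, also with 1 duodenal sample. Signal over background limits genes dim on all gastric arrays to a bound.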
